A study of Mus musculus with 4 samples.

Results

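The proteasome genes of the mouse were followed here, in 3T3 cells given recombinant LTα1β2. Members were all genes whose symbol begins with Psma, Psmb, Psmc, Psmd, Psme, Psmf or Psmg, with pseudogenes left out. That rule found 48 of the 12208 genes measured. Of these, 5 are immune genes (Psmb8, Psmb9, Psmb10, Psme1 and Psme2) and 43 are the other genes. The labels describe 3T3 as a line of pre-osteoblasts, and the series title calls it an osteoblast precursor line. RNA was sequenced from 4 groups of 1 library each: control (NC) at 24 h, control at 48 h, LTα1β2 (LTAlpha1Beta2) at 24 h and LTα1β2 at 48 h. LTα1β2 is the membrane form of lymphotoxin, a TNF family ligand whose receptor signals through NF-κB. The sources used here give neither the dose nor what the control received.

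The proteasome is the barrel-shaped protease that degrades proteins tagged with ubiquitin. Its 20S core is built of alpha and beta rings, and the peptide bonds are cut by the beta subunits β1, β2 and β5, encoded by Psmb6, Psmb7 and Psmb5. The 19S cap recognises and unfolds the substrate with ATPase (Psmc) and non-ATPase (Psmd) subunits. In the immunoproteasome the cutting subunits are replaced by β1i, β2i and β5i, encoded by Psmb9, Psmb10 and Psmb8. Psme1 and Psme2 encode PA28α and PA28β, which form a cap that opens the core without ATP. Immune subunits are known for their induction by interferon γ and for shaping the peptides that MHC class I molecules present.

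Psmb9 and Tap1, a peptide transporter gene, are read in opposite directions from a shared stretch. It is shown because both genes were measured and had different folds, a difference that was not tested. In GRCm38.p6 as annotated by RefSeq, a build the sources here do not tie to the authors' counts, the 225 bases between the Psmb9 and the Tap1 start lie at chr17:34187331-34187555 (plus strand shown, capitals mark 1 CCAAT box, letters CCAAT, and 1 GC box, letters GGGCGG, on either strand).
Psmb9-Tap1: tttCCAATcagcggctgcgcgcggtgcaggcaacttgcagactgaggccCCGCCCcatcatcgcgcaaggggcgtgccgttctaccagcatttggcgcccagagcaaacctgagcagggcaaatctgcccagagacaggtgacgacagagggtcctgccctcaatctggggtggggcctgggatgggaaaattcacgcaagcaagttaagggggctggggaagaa
Of 32851 RefSeq promoters (250 bases before to 50 after a start), 37.4% hold CCAAT and 35.7% hold GGGCGG.

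The promoters of 41 of the 48 members were found in the same RefSeq table, and 4 motifs were searched on both strands. Member counts are of genes with a match in any of their promoters, while the shares beside them are of single promoters. The units thus differ, and a gene with several promoters can match more easily. The interferon-stimulated response element, here GAAA, any 2 bases and GAAA, was in 5 of the 41 member genes against 3.44% of all promoters. These were Psmb3, Psmd4, Psmd9, Psmg4 and, as 1 of the 5 immune genes, Psme1. The GAS letters TTCNNNGAA were in 3 of 41 against 8.3%, and in 1 immune gene, Psmb8. The κB motif was in 6 of 41 against 8.46%, namely Psma6, Psma7, Psmd11, Psmd12, Psmd13 and Psme4, and in 0 immune genes. The antioxidant-type letters TGACNNNGC were in 6 of 41 against 12.4%, namely Psmb5, Psmb6, Psmc6, Psmd9, Psmd12 and Psme4, and in 0 immune genes. For each motif, 1 of the 10 members that rose by the test below had a match. A match is only a match of letters in this window. The following 30-base sites are shown for immune genes and for 2 of their constitutive partners, read 5′ to 3′ on the gene's strand with the match in capitals.
Psme1 (chr14:55578493-55578522, plus): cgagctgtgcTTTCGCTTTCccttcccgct
Psmb8 (chr17:34198088-34198117, plus): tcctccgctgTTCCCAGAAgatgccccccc
Psmb5 (chr14:54618023-54618052, minus): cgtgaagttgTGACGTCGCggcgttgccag
Psmb6 (chr11:70525338-70525367, plus): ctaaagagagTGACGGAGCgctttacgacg
The Psme1 match starts 9 bases after the RefSeq transcript start. Those of Psmb8, Psmb5 and Psmb6 start 97, 47 and 9 bases before it. In the GENCODE M21 annotation, used below for gene coordinates, Psme1 starts at 55578123 and Psmb8 at 34197721. There the printed sites of Psme1 and Psmb8 lie inside the genes.

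Values are CPM, reads per 1000000 reads over the listed genes. Reads recovered from the CPM came to between 11355974 and 15995777 per library. The read-weighted median transcript length was 2721 bases in the treated 48 h library and between 3161 and 3231 bases in the other 3, so that library holds relatively more reads of short transcripts. Proteasome transcripts are short, with a median of 1409 bases against 2947 over all genes tested, so the main results at 48 h are also given with the trend on transcript length removed from every library. The osteoblast genes Runx2, Sp7, Col1a1, Dmp1, Spp1 and Bglap, 6 of 8 listed, were among the measured genes, Bglap at 1.33 CPM or less, and Alpl and Ibsp were not analysed here. Of the 6, Runx2, Sp7, Col1a1 and Dmp1 fell by the test below, and their part in the results was not tested. Spp1 went the other way and was not called (adjusted p = 0.337, limma). It was at 1234 and 1430 CPM at 24 h and at 1525 and 2210 CPM at 48 h, control first. The summed level of the 6 was 17079 CPM (24 h) and 15897 CPM (48 h) in control and 11574 and 9649 CPM with LTα1β2. Col1a1, which carries most of that level, was not called with the length trend removed (adjusted p = 0.117, limma) or without the treated 48 h library (0.118, limma). Of 5 fibroblast markers 4 were measured, with a summed level of 16831 and 17516 CPM in control and 12431 and 10809 CPM with LTα1β2. Most of that level was Col1a2, which was not called (adjusted p = 0.212, limma). Among the 4, Pdgfrb fell and S100a4 rose (adjusted p = 0.0197 and 0.0124, limma), and their part in the results was not tested either. Pdgfra was at 115 and 152 CPM at 24 h and at 107 and 109 CPM at 48 h, control first. It was not called (adjusted p = 0.612, limma) but was called higher with the length trend removed (0.0218, limma), where S100a4 was not (0.14, limma). The labels do not say which 3T3 line was used. In such bulk samples fewer cells of a type and less RNA per cell cannot be told apart. Of 6 macrophage markers, a cell type rich in immunoproteasome, 4 were among the measured genes and 0 passed the test below. Their summed level was 72.1 CPM (24 h) and 83.8 CPM (48 h) in control and 67.9 and 98.2 CPM with LTα1β2, most of it Lyz2. Ptprc and Adgre1 were not analysed here, and the part of this list in the results was not tested.

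Every immune gene had a higher CPM with LTα1β2 than in control, at 24 h and further at 48 h. Psmb10, the β2i gene, was at 42.3 CPM without and 86.1 CPM with LTα1β2 at 24 h, and at 40.3 and 124 CPM at 48 h. That is 2.03-fold at 24 h (95% counting interval 1.85 to 2.24) and 3.07-fold at 48 h (2.78 to 3.4). The intervals are exact and cover counting error only, not differences between cultures. Both treated libraries lay above both controls, and of all genes tested only 0.329% had a higher fold at 24 h and 0.238% at 48 h. Psmb9, the β1i gene, had 24.5 CPM without and 33.7 CPM with LTα1β2 at 24 h (1.38-fold, 1.2 to 1.57), then 24.7 and 59.1 CPM at 48 h (2.39-fold, 2.09 to 2.74). Psmb8, the β5i gene, had 61.3 and 81.5 CPM at 24 h (1.33-fold, 1.22 to 1.45), then 57.5 and 127 CPM at 48 h (2.21-fold, 2.02 to 2.41). For both genes the control libraries were close together and the treated 48 h library was the highest of the 4.

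The PA28 genes were also highest in the treated 48 h library, with smaller folds than the catalytic genes at 24 h. Their counting intervals at 24 h overlapped those of Psmb8 and Psmb9, however. At 48 h the fold of Psme2 was above that of Psmb8, with overlapping intervals, and below it with the length trend removed. Psme2, the PA28β gene, had the highest level per length of all members in control at 24 h, 176 CPM per kilobase of transcript. It was at 170 CPM without and 219 CPM with LTα1β2 at 24 h (1.29-fold, 1.23 to 1.36) and at 158 and 363 CPM at 48 h (2.3-fold, 2.18 to 2.43). Psme1, the PA28α gene, was at 119 and 141 CPM at 24 h (1.18-fold, 1.11 to 1.26) and at 108 and 215 CPM at 48 h (1.98-fold, 1.85 to 2.11). Psme1 had the lowest fold of the 5 at both times. With the length trend removed the 48 h log2 fold was 1.4 against 1.6 for Psmb10, 1.04 against 1.22 for Psmb9 and 1.02 against 1.13 for Psmb8. It was 0.9 against 1.2 for Psme2 and 0.73 against 0.98 for Psme1. Psme2b is a copy of Psme2 with 1 exon against 11, 99.4% identical to it over 794 aligned bases, so reads of the 2 genes can be exchanged and the values of both are uncertain. It was at 10.2 and 11.3 CPM at 24 h and at 7.79 and 15.9 CPM at 48 h.

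**Figure D1:**
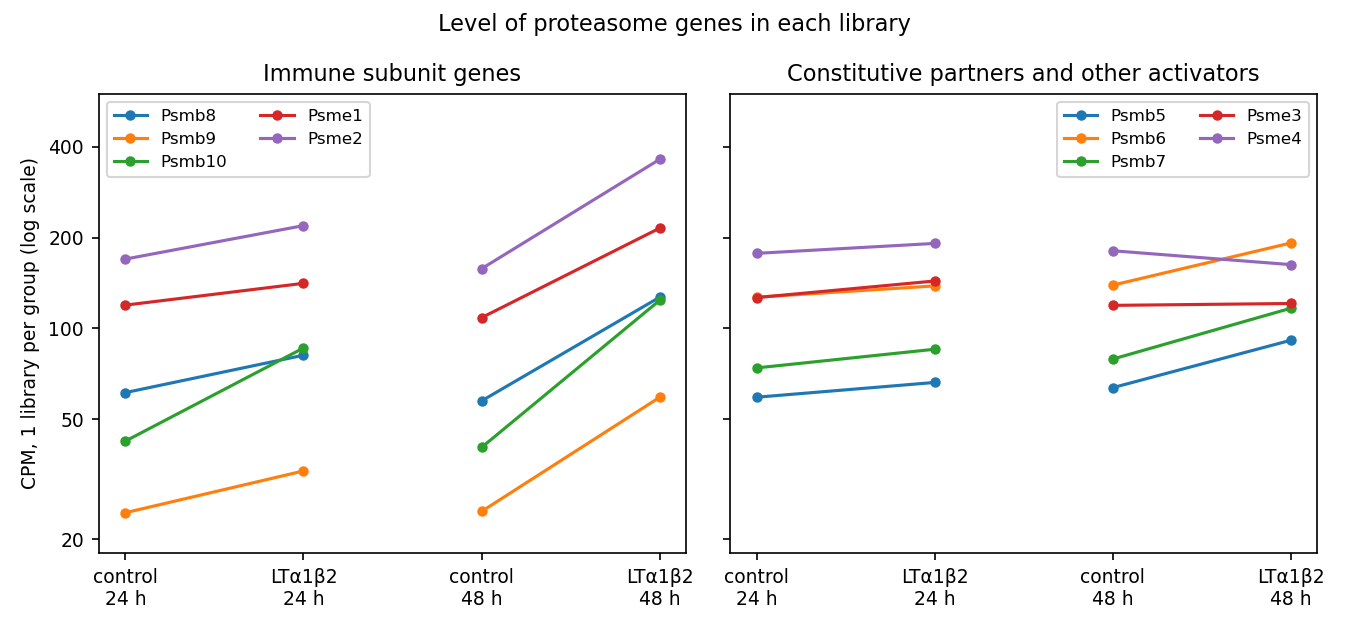
CPM (log scale) of the 5 immune genes (left) and of Psmb5, Psmb6, Psmb7, Psme3 and Psme4 (right) in the 4 libraries; each point is 1 library and lines join control and treated cells of the same time. All 5 immune genes lie higher in treated cells at both times, with Psmb9 lowest and Psme2 highest, while Psme4 lies lower in treated cells at 48 h.

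With 1 library per group no difference at a single time can be tested. The only test was an additive limma fit of treatment and time over all 12160 genes with a mean of at least 1 CPM, on log2(CPM + 1), with Benjamini-Hochberg adjustment over all of them. It has 1 residual degree of freedom and takes the 24 h and 48 h differences as repeats. "Rose" and "fell" below refer to genes past it at 0.05. All 5 immune genes rose, where 2.92% of all genes did. The limma log2 fold was 1.3 ± 0.17 (SE) for Psmb10 (adjusted p = 1.13e-11), 0.83 ± 0.18 for Psmb9 (0.000209) and 0.77 ± 0.17 for Psmb8 (0.000511). It was 0.78 ± 0.17 for Psme2 (0.00044) and 0.61 ± 0.17 for Psme1 (0.0111). This fit estimated infinite prior degrees of freedom, so each gene took the spread expected at its level. With 6.3 prior degrees of freedom, estimated from the fit with no time term, 0 of the 5 were called by limma (adjusted p from 0.104 to 0.459), although all 5 had an unadjusted p below 0.05. At that setting 11 of all 12160 genes were called higher and 2 lower. With the length trend removed all 5 rose, where 4.39% of all genes did, with adjusted p up to 0.00909 (limma). Without the treated 48 h library, in a limma fit with no time term, all 5 were called higher, where 3.31% of all genes were, and 0 members lower, where 3.04% were. That fit has a single treated library, which is assumed to vary as the 24 h and 48 h controls do. Without the 48 h control, 0 were called, and without the 24 h control 1 was, Psmb10.

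Of the 43 other genes 5 rose and 0 fell, where 2.92% of all genes rose and 2.27% fell. These were Psma3, Psma5 and Psma6 of the alpha ring, the 19S ATPase gene Psmc6 and Psmd10, which encodes gankyrin, an assembly chaperone of the 19S cap. Psmd10 was at 27.6 CPM without and 39.3 CPM with LTα1β2 at 24 h (1.42-fold, 1.25 to 1.61) and at 30.8 and 66.0 CPM at 48 h (2.14-fold, 1.9 to 2.43; limma log2 fold 0.78 ± 0.17, adjusted p = 0.000514). Its folds lay between those of Psme1 and Psmb10 at both times, and its limma log2 fold was 0.42 in the fit without the treated 48 h library. Psma3 was at 145 and 168 CPM at 24 h (1.15-fold) and at 158 and 336 CPM at 48 h (2.12-fold, 2.01 to 2.24; adjusted p = 0.0065, limma). The Psma3 difference thus lay mostly in the treated 48 h library. Psmc6 was 1.18-fold and 1.78-fold, Psma5 1.22-fold and 1.69-fold, and Psma6 1.24-fold and 1.65-fold, with limma adjusted p of 0.0377, 0.0439 and 0.0479. With the length trend removed these 5 were joined by Psma2, Psmb1 and Psmd5, 8 in all (4.39% of all genes), and 0 fell (3.31% of all genes). With infinite prior degrees of freedom as well, 12 of the 43 and all 5 immune genes were called higher (7.76% of all genes) and 0 lower (5.89%). With the trend removed by the median length of basic transcripts, 6 of the 43 were called higher, where 364 of 12157 genes were. Psmd5 was among them, and Psma2 and Psmb1 were not. With 6.3 prior degrees of freedom and the trend kept 0 of the 43 were called, where 11 of all 12160 genes were called higher and 2 lower.

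In direction, all 5 immune genes and 37 of the 43 others were higher at both times, where 28.8% of all genes were, and 3 others were lower at both, where 33.2% were. By size, 1 of the 5 immune genes, Psmb10, was at least 1.5-fold higher at 24 h on the log2(CPM + 1) scale, and 0 of the 43 others, where 1.48% of all genes were. At 48 h all 5 immune genes and 11 of the 43 others (10 of 41 without Psme2b and Psmc3ip) were, where 7.39% of all genes were. At 2-fold these became 4 and 2, where 1.86% of all genes were. None of the 48 was 1.5-fold lower, where 1.35% of all genes were at 24 h and 6.28% at 48 h. With the length trend removed 1 immune gene and 0 others were 1.5-fold higher at 24 h (1.36% of all genes), and 5 and 6 at 48 h (5.66%), and 0 were lower at 48 h (4.48%). The median log2 fold of the immune genes was 0.41 at 24 h and 1.2 at 48 h (1.02 with the length trend removed). That of the others was 0.13 and 0.34 (0.17 with the trend removed), and that of all genes tested 0.02 and -0.09. The ranges of the groups overlapped. At 24 h 6 of the 43 others lay above the lowest immune gene, Psme1, and 2 above the immune median, Psmg4 and Psmd10. At 48 h 2 lay above Psme1, Psma3 and Psmd10, and 0 above the immune median. With the trend removed 4 lay above Psme1 and 1 above the immune median at 48 h. The immune genes have transcripts of 962 to 1628 bases, and 18 other genes fall in that range. Their median log2 folds were 0.15 and 0.42, and 0.13 and 0.22 with the trend removed.

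**Figure D2:**
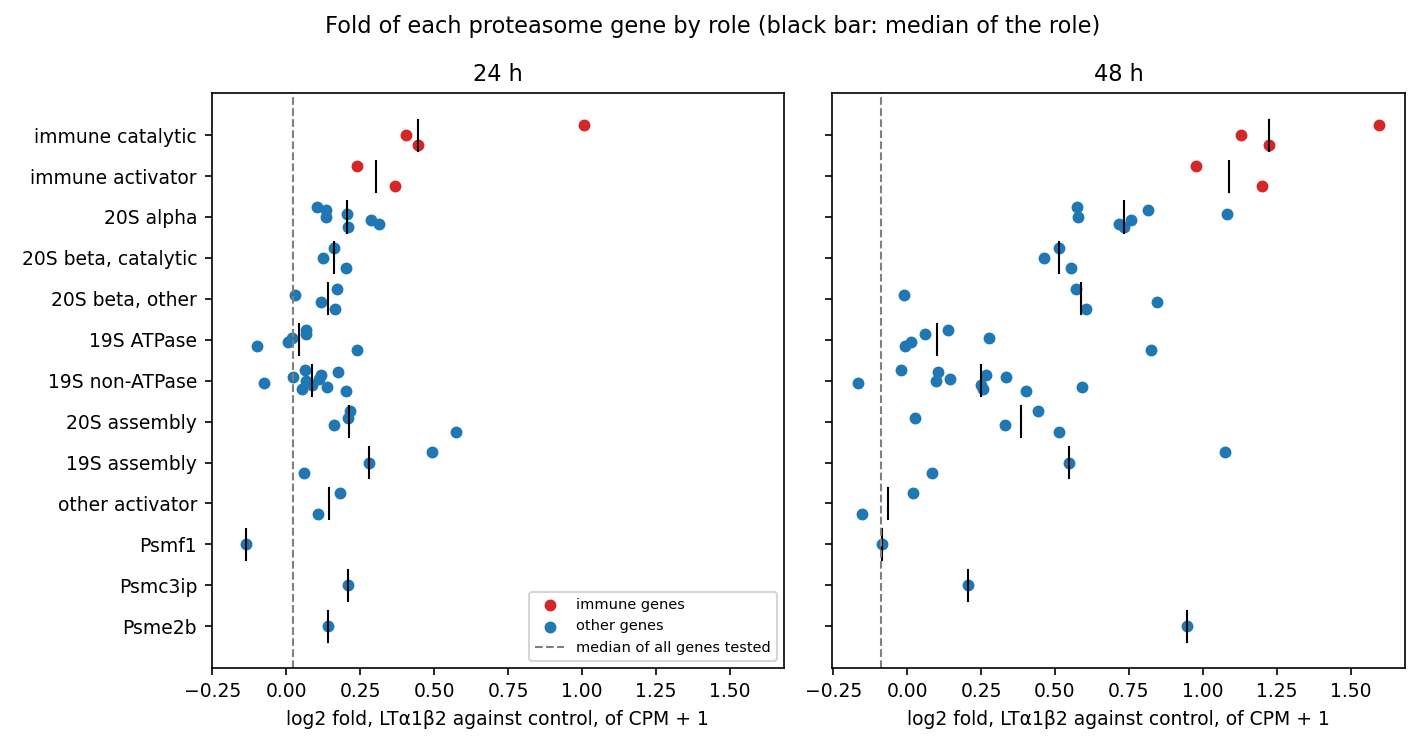
Log2 fold of CPM + 1, LTα1β2 against control, of each of the 48 genes at 24 h (left) and 48 h (right), in rows by role; red points are immune genes, blue points the others, black bars the median of a role and the dashed line the median of all genes tested. The immune rows lie farthest right at both times, with Psmb10 at 1.01 and 1.6, and at 48 h the medians of the 20S subunit rows lie right of those of the 19S subunit rows.

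The 14 constitutive genes of the 20S core differed from the 17 of the 19S cap in their values at 48 h. Medians of the log2 folds at the 2 times were 0.16 and 0.59 for the core, against 0.07 and 0.14 for the cap. Core transcripts are shorter, with a median of 1163 against 1636 bases, and with the length trend removed the 48 h medians were 0.4 and 0.13. Among the 7 alpha genes, which form the outer rings, the 48 h log2 fold ran from 0.57 (Psma1) to 1.08 (Psma3) and 3 rose. Among the 7 constitutive beta genes it ran from -0.01 (Psmb2) to 0.85 (Psmb3) and 0 rose. With the length trend removed these ranges were 0.35 to 1.13 (alpha) and -0.34 to 0.49 (beta). Psmb2, which encodes a non-cutting beta subunit, was at 84.6 and 86.4 CPM at 24 h and at 86.5 and 85.9 CPM at 48 h. The treated and control libraries thus differed by less than the counting interval at both times (0.946 to 1.1 and 0.911 to 1.08), while the intervals of the other constitutive beta genes excluded 1 at both times. With the length trend removed the 48 h log2 fold of Psmb2, whose transcript has 859 bases, was -0.34, the lowest of all members. In the ATPase ring Psmc6 stood apart from the other 5 genes, whose 48 h log2 folds ran from -0.01 to 0.28. Psmc4 was at 77.9 and 78.1 CPM at 24 h and at 76.3 and 77.0 CPM at 48 h, and Psmc5 at 106 and 98.6 CPM and at 104 and 103 CPM. Of the 11 non-ATPase genes 0 rose and 0 fell, with 48 h log2 folds from -0.16 to 0.59. The lowest was Psmd3, a scaffold subunit of the lid, with a treated level 0.948 times control at 24 h (0.901 to 0.997), and 0.892 times at the later time (0.84 to 0.947; adjusted p = 0.819, limma).

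The catalytic subunit genes can be set beside the genes they replace. Psmb5 was at 59.1 CPM without and 66.2 CPM with LTα1β2 at 24 h (1.12-fold) and at 63.6 and 91.3 CPM at 48 h (1.44-fold). Psmb6 was at 127 and 138 CPM (1.09-fold) and at 139 and 192 CPM (1.38-fold), and Psmb7 at 74.0 and 85.3 CPM (1.15-fold) and at 79.1 and 117 CPM (1.47-fold). None of these 3 passed the test (adjusted p = 0.297, 0.405 and 0.211, limma), and with the length trend removed their 48 h log2 folds were 0.2, 0.11 and 0.32. The ratio of Psmb10 to Psmb7 was 1.76 times its control value at 24 h (counting interval 1.56 to 1.99) and 2.08 times at 48 h (1.83 to 2.37). For Psmb9 to Psmb6 these were 1.26 (1.09 to 1.46) and 1.73 (1.5 to 2.0), and for Psmb8 to Psmb5 1.19 (1.05 to 1.34) and 1.54 (1.35 to 1.74). Ratios within a library do not depend on the scaling of its column. The log2 difference between immune gene and partner at 48 h was 1.06, 0.79 and 0.62 for these pairs, and 1.09, 0.93 and 0.82 with the length trend removed.

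Per kilobase of transcript, Psmb10 made up 33.6% of its pair with Psmb7 in control and 47.2% in treated cells at 24 h, and 31.1% and 48.4% at 48 h. Psmb8 made up 36.4% and 40.5% of its pair with Psmb5 at 24 h and 33.3% and 43.4% at 48 h. Psmb9 was the smaller member throughout, at 10.2% and 12.6% of its pair with Psmb6 at 24 h and 9.5% and 15.4% at 48 h. Within each pair and time the treated share was the higher, and in none of the libraries did the immune gene exceed its partner, although the interval of the Psmb10 share in treated cells at 48 h, 46.6% to 50.3%, reached past equality. Over the 3 pairs summed, the immune share of CPM per kilobase was 23.4% and 30.5% at 24 h and 21.2% and 32.8% at 48 h. These shares are of RNA and depend on the transcript lengths taken from the annotation.

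**Figure D3:**
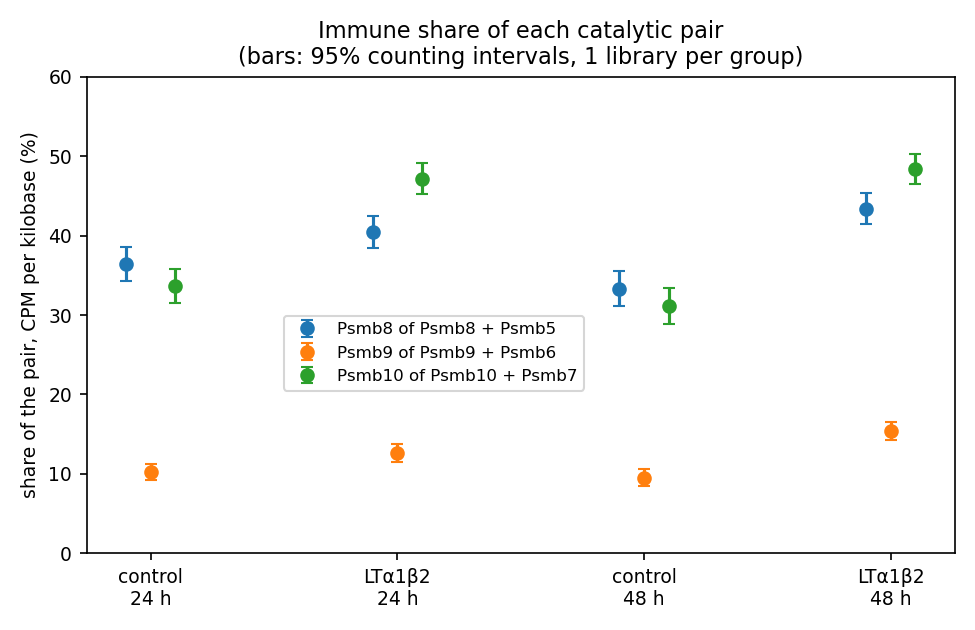
Share of the immune gene in each catalytic pair (percent, CPM per kilobase of transcript) in the 4 libraries; points are 1 library each and bars are exact 95% counting intervals. In treated cells the Psmb10 share stands at 47.2% and 48.4%, against 33.6% and 31.1% in control, and the Psmb9 share stays lowest in every library.

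The other activators and the inhibitor did not pass the test. Psme3, which encodes the nuclear PA28γ, was at 126 and 144 CPM at 24 h (1.13-fold, 1.07 to 1.21) and at 119 and 121 CPM at 48 h (1.01-fold, 0.943 to 1.09). The ratio of Psme2 to Psme3 stood at 1.14 times its control value at 24 h (1.05 to 1.23), then 2.27 times at 48 h (2.08 to 2.48). That of Psme1 to Psme3 was 1.04 (0.954 to 1.14) and 1.95 (1.77 to 2.15), so at 24 h Psme1 was not distinguishable from Psme3 at this depth. Psme3 has the longer transcript, 2664 bases, and with the length trend removed the 48 h log2 difference shrank from 1.18 to 0.84 for Psme2 and from 0.97 to 0.67 for Psme1. Psme4, the PA200 gene, was at 177 and 191 CPM at 24 h and at 181 and 163 CPM at 48 h. Psmf1, which encodes the proteasome inhibitor PI31, was at 44.1 and 40.1 CPM at 24 h and at 39.4 and 37.1 CPM at 48 h, with both counting intervals (0.814 to 1.01 and 0.825 to 1.07) including 1.

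Among assembly genes, the 4 Psmg chaperone genes of the 20S core had 24 h log2 folds between 0.16 and 0.57 and 48 h ones between 0.03 and 0.52, and 0 passed. Psmg4 had the highest 24 h fold of the 43 other genes, with 6.94 and 10.8 CPM (1.56-fold, 1.22 to 2.0), and was at 8.02 and 11.9 CPM at 48 h (1.48-fold, 1.14 to 1.93; adjusted p = 0.0855, limma). Its transcript, 555 bases, is the shortest, and its 48 h log2 fold with the length trend removed was 0.09. Psmg3 had the lowest level of all members per length in control at 24 h, 6.23 CPM per kilobase. Psmd5, another chaperone of the 19S cap, was at 90.3 and 110 CPM at 24 h and at 93.6 and 137 CPM at 48 h. Its transcript is long, 4397 bases, and its 48 h log2 fold was 0.55, or 0.72 with the trend removed. Psmc3ip, included by its symbol, encodes a recombination factor and no subunit, and its log2 fold was 0.21 at both times.

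**Figure D4:**
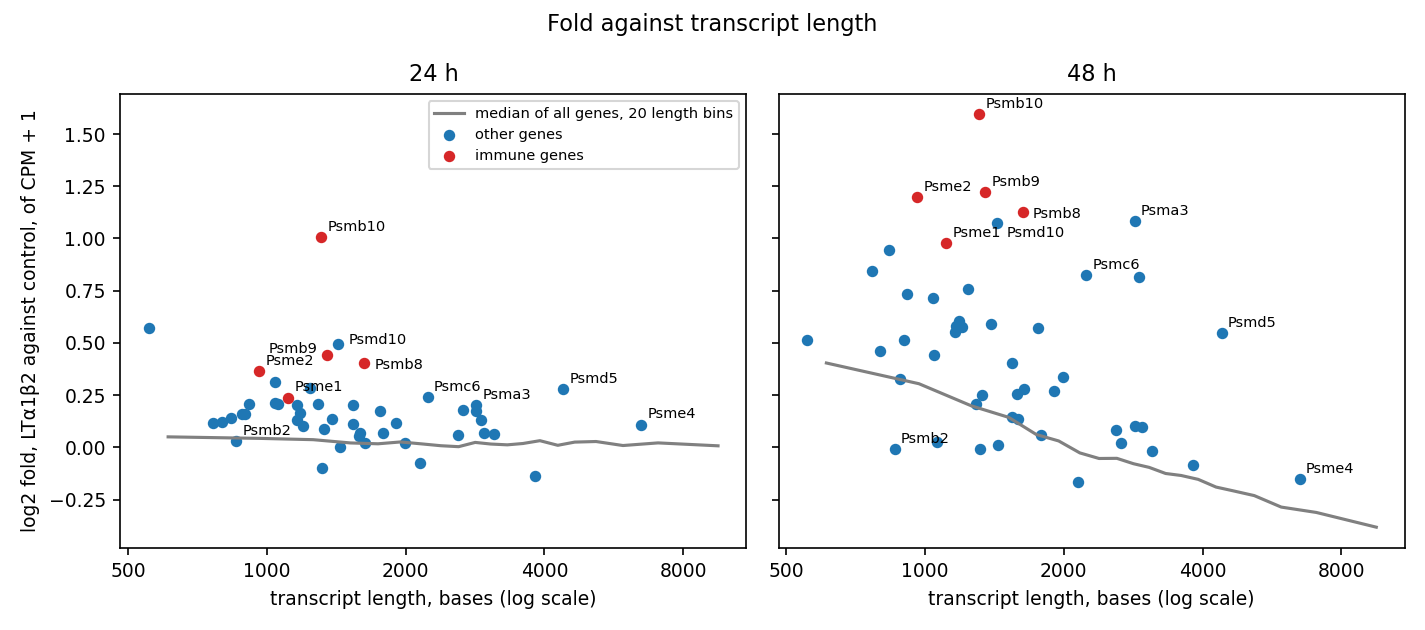
Log2 fold of CPM + 1, LTα1β2 against control, against transcript length in bases (log scale) at 24 h (left) and 48 h (right) for the 48 genes (red immune, blue other); the grey line is the median of all genes in 20 bins of length. The line is nearly flat at 24 h and falls at 48 h from 0.4 to -0.38, and the immune genes lie above it at both times.

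Across the 43 other genes the log2 fold at 48 h had Spearman's rho of -0.364 with transcript length (Pearson's r = -0.338 with log2 length), and across the 12157 tested genes with a length rho was -0.465. With the trend removed rho was 0.025 across the 43. At 24 h rho was -0.289 across the 43 and -0.028 across all genes. These points share the same 4 libraries and genes are not independent, so no p-value is given. Psma2 and Psma3 have principal transcripts of 2911 and 2846 bases in the annotation, and their values with the trend removed, 0.87 and 1.13 at 48 h, rest on those lengths.

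Between 24 h and 48 h in control cells the immune genes did not move up. Their log2 change with time ran from -0.14 to 0.01 with a median of -0.09, and for 3 of 5 the counting interval included no change. Psme1 and Psme2 were at 0.909 (0.848 to 0.974) and 0.929 (0.877 to 0.984) of their 24 h level. The others had a median of 0.08, with 31 of 43 higher at 48 h, and the median of all genes tested was -0.02. In treated cells the immune genes differed by 0.52 to 0.79 between the times, and the others by -0.25 to 1.0 with a median of 0.32. With the length trend removed the immune genes differed by 0.36 to 0.65 and the median of the others was 0.15. The 48 h fold exceeded the 24 h fold in 5 of 5 immune genes and 33 of 43 others, and with the length trend removed in 5 and 29. The median of the 48 h minus the 24 h log2 fold was 0.74 (immune), 0.2 (others) and -0.1 (all genes tested). With the length trend removed these medians were 0.57, 0.1 and -0.02. Whether the 24 h and 48 h folds differ was not tested.

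In the GENCODE M21 annotation of GRCm38, Psmb9 (ENSMUSG00000096727, chromosome 17, 34181987 to 34187764, minus strand) and Psmb8 (ENSMUSG00000024338, 34197721 to 34201454, plus strand) lie 9956 bases apart. Tap1 is read from the other strand toward Psmb8. In this annotation Psmb9 reaches farther upstream than in RefSeq. The stretch printed above then lies inside Psmb9, and Psmb9 and Tap1 overlap by 212 bases (34187553 to 34187764). Whether the counting used strand is not given, so reads in the overlap may be shared. Tap1 was at 123 CPM without and 131 CPM with LTα1β2 at 24 h and at 111 and 135 CPM at 48 h, log2 folds of 0.09 and 0.27 (adjusted p = 0.679, limma). The ratio of Psmb9 to Tap1 stood at 1.29 times its control value at 24 h (1.11 to 1.49), then 1.97 times at 48 h (1.7 to 2.29). The log2 difference between the 2 genes was 0.37 and 0.98, and 0.34 and 0.71 with the length trend removed. Psme1 (ENSMUSG00000022216, chromosome 14, 55578123 to 55581529, plus strand) and Psme2 (ENSMUSG00000079197, 55587441 to 55591113, minus strand) lie 5911 bases apart. Psmb10 (ENSMUSG00000031897, chromosome 8, 105935735 to 105938444, minus strand), has the largest fold and lies on another chromosome.

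Genes of the same pathway outside the symbol rule were read from lists. Beside each list count stand the shares over all genes, 2.92% that rose and 2.27% that fell. With 6.3 prior degrees of freedom 0 genes of these 4 lists were called, where 11 of all 12160 genes were called higher and 2 lower. Of 8 tested genes for assembly or associated factors (of 11 listed) 0 passed. Pomp, the maturation factor of the 20S core, was at 154 and 176 CPM at 24 h and at 166 and 263 CPM at 48 h (adjusted p = 0.139, or 0.0308 with the length trend removed, limma). Sem1, a small 19S subunit, had log2 folds of -0.04 and 1.0, and Txnl1, a redox protein of the cap, 0.16 and 0.26. Of 14 tested genes of factors that regulate proteasome genes (of 15 listed) 3 rose and 0 fell. They were Irf1, a factor known to act on Psmb9, with log2 folds of 0.73 and 0.88, Nfkb2 with 1.16 and 0.9, and Relb with 0.61 and 0.64. Nfe2l1, the factor of the constitutive genes when the proteasome is impaired, was named outside the rule for its role. It was at 432 and 507 CPM at 24 h and at 447 and 419 CPM at 48 h (adjusted p = 0.91, limma). Of 16 peptide processing genes 3 rose and 0 fell: the tapasin gene Tapbp (0.6 and 0.65), its relative Tapbpl (0.53 and 0.93) and the class I gene H2-K1 (0.52 and 0.91). Of 13 tested ubiquitin genes (of 14 listed) 3 rose and 0 fell, namely Rps27a, a ubiquitin fusion gene (0.12 and 1.35), Ube2l6, the conjugating enzyme of ISG15 (0.27 and 1.1), and Isg15 (-0.15 and 1.44). The folds of these 3 were mainly in the treated 48 h library, and Isg15, with a transcript of 756 bases, was not called with the length trend removed (adjusted p = 0.12, limma).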

How the data were processed

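The authors deposited 1 table of CPM for 12208 genes with 1 column per library, and each column sums to 1000000. The submitters' processing notes name edgeR 3.30.0. For aligner, counter, build and annotation: not given in the sources used here. Per the labels' protocols the kit keeps strand. Whether counting used it is not given. The lowest value is 0.734 CPM, so genes silent in a library are not analysed here. Every value was a whole multiple of an inferred step within 0.01 of it. That step was taken as 1 read and gave the reads behind the exact 95% intervals, but a separate search on low values did not recover it, so depths and intervals rest on this inference. Symbols, coordinates and lengths (principal transcript, or the median of basic ones) came from GENCODE M21, where 12205 identifiers were found. Of 50 annotated coding members, 2 (Psma8 and Psmb11) were not analysed here. The fit was limma 3.58.1 in R 4.3.3 (trended, two-sided). It was tried on simulated counts with the same fold at both times and no length trend. That trial therefore does not check the fit under the length trend of these data. Length trends were removed by loess (span 0.3). Fold intervals are Clopper-Pearson, and those of changes in ratios use the normal approximation on the log scale. Named were the immune genes, their partners, other activators, the inhibitor, genes past the test, the 4 highest and 4 lowest others by mean fold, the extremes per length and up to 3 per pathway list. Members and lists were chosen with earlier results of these data known. Nothing says that libraries came from separate cultures. Settings tried are in the closing section.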

Additional observations from a re-analysis of the deposited data

Results flagged for a closer look

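For 3 members the treated library lay above control at 24 h and below it at 48 h. These opposite directions are single differences between 2 libraries each and were not tested. Psme4 had log2 folds of 0.11 and -0.15, a difference of -0.26 between the times, and both counting intervals excluded 1 (1.02 to 1.14 and 0.846 to 0.956). With the length trend removed both of its folds were above 0, at 0.10 and 0.12. Psmd1 had 0.06 and -0.02 (difference -0.081), and Psmb2 had 0.03 and -0.01 (difference -0.04), with counting intervals that included 1. With the length trend removed Psmd1 had 0.05 and 0.06, and Psmb2 -0.01 and -0.34.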

How the results depend on the processing

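All 5 immune genes were called at each pseudocount (0.25 and 5), each low-value filter, with no intensity trend and with the length trend removed. The count was 1 with median-of-ratios rescaling (5 at infinite prior degrees of freedom), 1 with no time term, 0 with 6.3 prior degrees of freedom and 1 with these and the length trend removed. Leaving out 1 library, which also drops the time term, gave 0 to 5 immune genes, 0 to 26 others higher (26 without the treated 24 h library, 1 without the treated 48 h library, 0 without either control) and 0 to 1 others lower. The others called were 1 with rescaling, and 18 with it at infinite prior degrees of freedom. They were 8 with the length trend removed (18.4 prior degrees of freedom), 12 at infinite and 0 at 6.3 prior degrees of freedom. They were 6 with that trend removed by median basic transcript lengths. They were 0 with no time term, 2 with no intensity trend and 0 with 6.3 prior degrees of freedom. Over all 12160 genes tested 95 were called higher with rescaling, and 809 with it at infinite prior degrees of freedom. The count was 20 with no time term, 351 with no intensity trend and 11 with 6.3 prior degrees of freedom. With the length trend removed it was 534, 943 at infinite and 80 at 6.3 prior degrees of freedom, and 364 with median basic lengths. The length trend brought the 48 h medians to 1.02 (immune) and 0.17 (others), or 1.05 and 0.17 with median basic transcript lengths. Others at 1.5-fold at 48 h were 18 with rescaling, 6 with the trend removed by either length and 2 at 2-fold, and at 24 h 1 with a pseudocount of 0.25. Combined settings and the median basic lengths were chosen after seeing the data. The planned count test on recovered reads was not run, because a separate search for the step of 1 read, made on the low values, did not recover it: the lowest value is 9 to 12 reads per library. The time term already pairs the libraries by time, and the labels number no replicates, so no further block was fitted. Depth limits Psmg3 and Psmg4 most, at 5.19 to 11.9 CPM.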
